A study of Mus musculus with 3 samples.

Results

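Igll1, Vpreb1, Vpreb3, Rag1, Rag2 and Dntt, 6 genes of early lymphocyte development, were followed through single-cell RNA of mouse spleen. They were listed by name among 33696 genes of the count tables, because earlier results of the same libraries had shown cells led by Igll1, so the genes were chosen by their measured UMIs in these libraries and their own levels are given as a description. All 6 were found, Vpreb1 under the symbol Vpreb1a. The spleens fell into 3 groups of 1 library each, MASH-Phe-free, MASH and Chow, and the labels give only the tissue and the group for them. MASH is steatohepatitis that comes with metabolic dysfunction, and Phe stands for phenylalanine in the series title. For the bulk tumour RNA of the same study, the series text describes C3H mice on a high-fat diet and then a methionine- and choline-deficient diet with subcutaneous HCA-1 liver tumours. Whether the spleens came from such mice, how the phenylalanine-free group was fed, and the number, age and tumour status of the animals were not given in the sources used here. With 1 library per group, no difference between groups could be tested, no spread between animals was known, and each interval below covers counting error only.

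B cells are made from progenitors in stages, mostly in the bone marrow of adult mice, with the spleen of young mice as a further site. The RAG recombinase, made of the products of Rag1 and Rag2, cuts immunoglobulin and T-cell-receptor gene segments so that they can be joined, and terminal deoxynucleotidyl transferase, the product of Dntt, adds nucleotides at the joints. After a heavy chain has been made, it pairs with a surrogate light chain built from the products of Igll1 (lambda5) and Vpreb1 (VpreB), and this pre-B cell receptor drives division before a light chain gene is joined. Vpreb3 encodes a related protein that stays inside the cell and binds newly made immunoglobulin chains, and it is known to be used beyond the precursor stage. T cell precursors use Rag1, Rag2 and Dntt too.

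Of the 6 genes, the 3 whose promoter windows hold the letters CAGGTG are shown, from RefSeq on GRCm38.p6, 250 bases before to 50 after the start of each gene and read 5′ to 3′ on its own strand. Capitals mark these letters on either strand, an E-box of the kind that E2A proteins are known to bind. Igll1 is at chr16:16863936-16864235 on the minus strand, Vpreb1 at chr16:16869206-16869505 on the minus strand and Rag1 at chr2:101649483-101649782 on the minus strand.
Igll1: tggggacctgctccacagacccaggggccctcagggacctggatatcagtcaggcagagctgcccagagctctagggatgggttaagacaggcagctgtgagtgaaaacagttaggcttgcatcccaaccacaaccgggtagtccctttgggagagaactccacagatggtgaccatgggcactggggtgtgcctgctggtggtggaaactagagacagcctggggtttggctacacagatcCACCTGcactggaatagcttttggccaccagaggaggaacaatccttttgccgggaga
Vpreb1: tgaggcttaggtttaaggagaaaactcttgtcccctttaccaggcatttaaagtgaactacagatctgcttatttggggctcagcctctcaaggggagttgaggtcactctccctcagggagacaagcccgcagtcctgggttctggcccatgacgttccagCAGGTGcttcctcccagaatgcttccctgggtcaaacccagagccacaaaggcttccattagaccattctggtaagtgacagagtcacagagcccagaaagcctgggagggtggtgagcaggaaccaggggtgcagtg
Rag1: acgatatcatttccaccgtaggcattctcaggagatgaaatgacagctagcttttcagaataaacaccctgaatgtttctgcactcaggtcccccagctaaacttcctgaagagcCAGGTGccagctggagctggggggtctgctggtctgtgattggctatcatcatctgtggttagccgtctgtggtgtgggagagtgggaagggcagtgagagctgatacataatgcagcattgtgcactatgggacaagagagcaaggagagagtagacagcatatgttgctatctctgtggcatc
The match starts at position -8 from the gene start in Igll1, at -88 in Vpreb1 and at -135 in Rag1. The same letters were in 20.2% of 32851 RefSeq promoter windows of this length, and they were not in the windows of Vpreb3, Rag2 and Dntt. The letters CCCNNGGG, a spaced pattern like that of EBF1 sites and tested on both strands, were in 13.7% of all windows and, of the 6 genes, in that of Igll1. A match of letters says nothing of binding in these cells. The count files use GRCm39, so these coordinates belong to the sequences shown and not to the counts.

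The libraries held 16778 cell barcodes in MASH-Phe-free, 19219 in MASH and 16495 in Chow, with 160115282, 152501471 and 138787602 unique molecular identifiers (UMIs, counts of captured RNA molecules). After filters and removal of called doublets, 15560 MASH-Phe-free, 17333 MASH and 15669 Chow cells remained, with a median of 6614, 6334 and 7304 UMIs. Cells of B-like clusters made up 28.7% of MASH-Phe-free, 34.9% of MASH and 38.0% of Chow cells, which matches the labelled organ by its defining markers. Pairs of libraries shared 72 to 102 barcode sequences, and 1 of the MASH-Phe-free cells described below as gate cells had such a barcode. Levels of the 6 genes are given as UMIs per 1000000 UMIs of the library or cell class (CPM), which are not scaled to gene length, so levels are compared between libraries and cell types and not between genes.

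The surrogate light chain genes were rare and very unevenly spread: few cells carried them, and those cells carried many molecules. Igll1 had 1134 UMIs in 33 MASH-Phe-free cells, 306 UMIs in 10 MASH cells and 355 UMIs in 12 Chow cells. Its level was 7.32 CPM (95% Poisson interval 6.90 to 7.76) in MASH-Phe-free, 2.12 (1.89 to 2.38) in MASH and 2.64 (2.37 to 2.93) in Chow. The MASH-Phe-free library was thus the highest for Igll1, with 3.45 times the level of MASH (3.04 to 3.92) and 2.77 times that of Chow (2.46 to 3.13), while MASH was at 0.804 of Chow (0.688 to 0.939). These intervals treat molecules as independent, although most came from few cells, so they are narrower than the cell counts allow: a single cell gave 7.50% of all Igll1 UMIs in MASH-Phe-free, 26.1% in MASH and 15.5% in Chow. Of the 55 Igll1 cells, 44 held 5 or more Igll1 UMIs.

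Vpreb1 was found in many more cells than Igll1. It had 1091 UMIs in 105 MASH-Phe-free cells, 313 UMIs in 66 MASH cells and 397 UMIs in 60 Chow cells. Its level was 7.04 CPM (6.63 to 7.47) in MASH-Phe-free, 2.17 (1.94 to 2.43) in MASH and 2.95 (2.67 to 3.26) in Chow, so the order of the libraries was that of Igll1. The Vpreb1 level in MASH-Phe-free was 3.24 times that of MASH and 2.38 times that of Chow, and in MASH it was 0.735 of Chow. The additional Vpreb1 cells held 1 molecule each in most cases and are described with the other cell types below.

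A near-identical copy limits the Vpreb1 counts. In the GENCODE annotation of GRCm38, the Vpreb1 transcript of 766 bases and that of its copy Vpreb2, listed as Vpreb1b in the count tables, were identical at 739 aligned bases and different at 20 (97.4% identity). Of 677 windows of 90 bases in Vpreb1, 107 (15.8%) also occurred in the copy, so reads there could not be told apart. Vpreb1b had 144 UMIs in 34 cells, of which 32 also carried Vpreb1. How the reads were split between the copies was not tested. Vpreb1 also overlaps Top3b on the opposite strand by 108 bases, Rag1 and Rag2 overlap the gene B230118H07Rik, and Vpreb3 overlaps a pseudogene, Gm16221, on the opposite strand. Igll1 and Dntt overlapped no other annotated gene.

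The recombinase genes were carried by about as many cells as Igll1, 60 for Rag1 and 63 for Rag2 against 55. Rag1 had 93 UMIs in 29 MASH-Phe-free cells, 33 UMIs in 11 MASH cells and 108 UMIs in 20 Chow cells, or 0.60, 0.229 and 0.804 CPM. Chow was the highest library for Rag1: MASH was at 0.285 of Chow (0.187 to 0.424), and MASH-Phe-free at 2.62 times MASH (1.75 to 4.03) and 0.747 of Chow (0.560 to 0.995). Rag2 had 84 UMIs in 32 MASH-Phe-free cells, 26 UMIs in 14 MASH cells and 56 UMIs in 17 Chow cells, or 0.542, 0.180 and 0.417 CPM. MASH was the lowest library for Rag2 as well, at 0.433 of Chow (0.261 to 0.701), and MASH-Phe-free was at 3.01 times MASH (1.92 to 4.86). The Rag2 ratio of MASH-Phe-free to Chow was 1.30, with an interval of 0.917 to 1.86 that includes equal levels.

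Dntt, the gene of the enzyme that diversifies the joints, had 1021 UMIs in 105 MASH-Phe-free cells, 296 UMIs in 83 MASH cells and 735 UMIs in 123 Chow cells. Its level was 6.59 CPM (6.19 to 7.01) in MASH-Phe-free, 2.05 (1.83 to 2.30) in MASH and 5.47 (5.08 to 5.88) in Chow. MASH was again the lowest, at 0.376 of Chow, and MASH-Phe-free was at 3.21 times MASH and 1.21 times Chow. Single cells reached 120 Dntt UMIs in MASH-Phe-free, 39 in MASH and 138 in Chow.

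Vpreb3 differed from the other 5 genes in both its spread over cells and its order over libraries. It had 7523 UMIs in 2066 MASH-Phe-free cells, 10156 UMIs in 2917 MASH cells and 10250 UMIs in 3206 Chow cells. Its level was 48.6 CPM (47.5 to 49.7) in MASH-Phe-free, 70.5 (69.1 to 71.9) in MASH and 76.3 (74.8 to 77.8) in Chow, so MASH-Phe-free was the lowest library, at 0.689 of MASH and 0.637 of Chow.

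Set against the other genes of the tables, MASH-Phe-free was higher than MASH by more than 2-fold for 5 of the 6 genes, all but Vpreb3, where 4.13% of 19532 genes with at least 20 UMIs in the pair of libraries were. MASH was lower than Chow by more than 2-fold for Rag1, Rag2 and Dntt, where 2.95% of 19401 genes were, and higher for none of the 6, where 4.32% were. MASH-Phe-free was higher than Chow by more than 2-fold for Igll1 and Vpreb1, where 6.22% of 19426 genes were, and lower for none of the 6, where 3.82% were. None of the 6 was lower by more than 2-fold in MASH-Phe-free than in MASH either, where 3.26% were. The genes were chosen with such values known, so these counts are a description. The 3 comparisons share libraries and are not independent of each other.

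**Figure D1:**
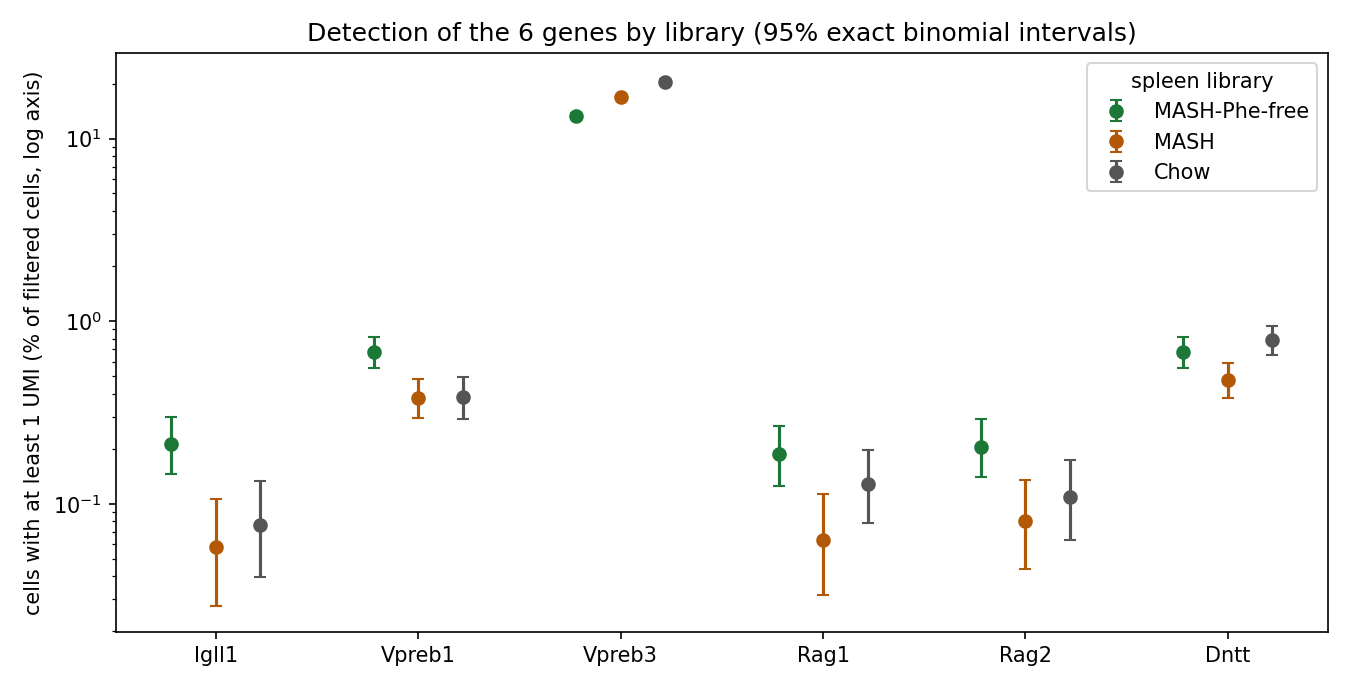
Share of filtered cells with at least 1 UMI of each gene (% on a log axis) in the MASH-Phe-free, MASH and Chow spleen libraries, with 95% exact binomial intervals. Igll1 was found in 0.212%, 0.0577% and 0.0766% of cells and Vpreb3 in 13.3%, 16.8% and 20.5%, in that order of libraries, so the genes differ in which library is highest.

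The shares of cells followed the levels in their order for 4 genes and not for Rag1 and Dntt. For Vpreb1 the shares were 0.675% in MASH-Phe-free, 0.381% in MASH and 0.383% in Chow, so MASH and Chow were alike while MASH had the lower level. For Rag1 the share was 0.186% in MASH-Phe-free, 0.0635% in MASH and 0.128% in Chow, whereas the level was highest in Chow. For Dntt the share was 0.675% in MASH-Phe-free, 0.479% in MASH and 0.785% in Chow, whereas the level was highest in MASH-Phe-free. The Rag1 cells of Chow and the Dntt cells of MASH-Phe-free held more molecules each. When cells were thinned to 2000 UMIs, with 3409 MASH-Phe-free, 4435 MASH and 3048 Chow cells too shallow to be kept, Igll1 was found in 0.222%, 0.0620% and 0.0713% of cells. The order of the libraries for Igll1 was the same at equal depth. Dntt was found in 0.428% of MASH-Phe-free, 0.256% of MASH and 0.333% of Chow cells after thinning, so its order then was that of its level, with intervals of MASH-Phe-free and Chow that overlap.

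Most cells with Igll1, Rag1 or Rag2 carried each of the other 5 genes, taken singly. Of the 55 Igll1 cells, 46 carried Vpreb1 (83.6%, exact binomial interval 71.2 to 92.2), against 0.381% of the cells without Igll1. Of the same cells, 34 carried Rag1, 32 Rag2, 39 Dntt and 46 Vpreb3. Of the cells without Igll1, 0.0536%, 0.0639%, 0.561% and 16.8% did, in that order. Of the 60 Rag1 cells, 39 carried Rag2 (65.0%, 51.6 to 76.9) and 50 carried Vpreb3, against 0.0495% and 16.8% of the cells without Rag1. This was not so for Vpreb1 and Dntt cells: of 231 Vpreb1 cells 46 carried Igll1 (19.9%), and of 311 Dntt cells 39 did (12.5%). Of 48562 cells, 466 carried exactly 1 of the 5 genes, 23 carried 2, 12 carried 3, 13 carried 4 and 24 carried all 5. The 24 cells with all 5 genes were 14 in MASH-Phe-free, 2 in MASH and 8 in Chow.

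**Figure D2:**
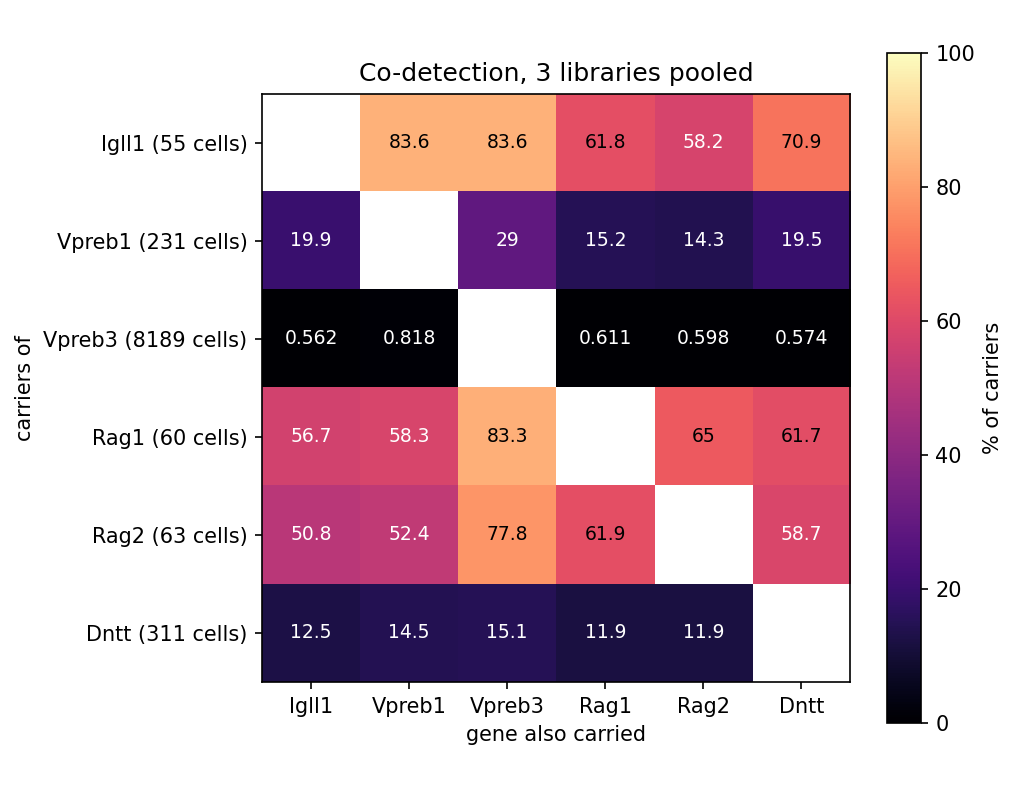
Share of the cells that carry the gene of a row (at least 1 UMI, 3 libraries pooled) that also carry the gene of a column, in % by colour and print. Igll1 cells carried Vpreb1 in 83.6%, whereas Vpreb1 cells carried Igll1 in 19.9%, and most Rag1 cells carried Vpreb3.

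Cells with at least 3 summed UMIs from at least 2 of Igll1, Vpreb1, Rag1, Rag2 and Dntt were grouped and are called gate cells. Vpreb3 was left out of this rule since later B cells carry it. There were 40 gate cells in MASH-Phe-free, 11 in MASH and 16 in Chow, 67 in all. They made up 0.257% of MASH-Phe-free cells (exact binomial interval 0.184 to 0.350), 0.0635% of MASH cells (0.0317 to 0.114) and 0.102% of Chow cells (0.0584 to 0.166). The MASH-Phe-free share was 4.05 times that of MASH (2.08 to 7.89) and 2.52 times that of Chow (1.41 to 4.49). The MASH share was 0.621 of Chow (0.289 to 1.34), an interval that includes equal shares. As a share of cells of B-like and plasma-like clusters together, the ratios were 5.04 for MASH-Phe-free over MASH, 3.07 for MASH-Phe-free over Chow and 0.609 for MASH over Chow. The rule left out 1 MASH-Phe-free, 1 MASH and 8 Chow cells of a B-like cluster led by Il7r and Sox4, described below.

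Depth and the make-up of the cells also differed between the libraries. Gate cells had a median depth of 18643 UMIs in MASH-Phe-free, 8360 in MASH and 10793.5 in Chow, and after thinning all cells to 2000 UMIs the gate share was 0.222% in MASH-Phe-free, 0.0698% in MASH and 0.0792% in Chow. Cells of progenitor-like clusters also numbered 143 in MASH-Phe-free, 18 in MASH and 34 in Chow, neutrophil-like cells 1927, 899 and 1123, and erythroid-like cells 712, 1031 and 112. When cells of the erythroid-like and neutrophil-like clusters were left out of the total, the MASH-Phe-free gate share was 4.33 times that of MASH. The part that the make-up of the spleen has in the gate share beyond this was not tested.

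Most gate cells were far from the edge of the rule. Of the 67, 53 held at least 10 summed UMIs, 9 held 5 to 9 and 5 held 3 or 4. Just outside, 5 cells held 2 UMIs from 2 of the genes, and 51 cells held at least 3 UMIs of 1 gene, of which 43 were Dntt cells and 8 Rag1 or Rag2 cells. Gate cells held 99.5% of all Igll1 UMIs, 89.0% of Vpreb1, 85.0% of Rag1, 83.7% of Rag2, 67.6% of Dntt and 5.29% of Vpreb3 UMIs. Igll1 averaged 38.0 UMIs per Igll1 cell inside the gate and 1.13 outside it.

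**Figure D3:**
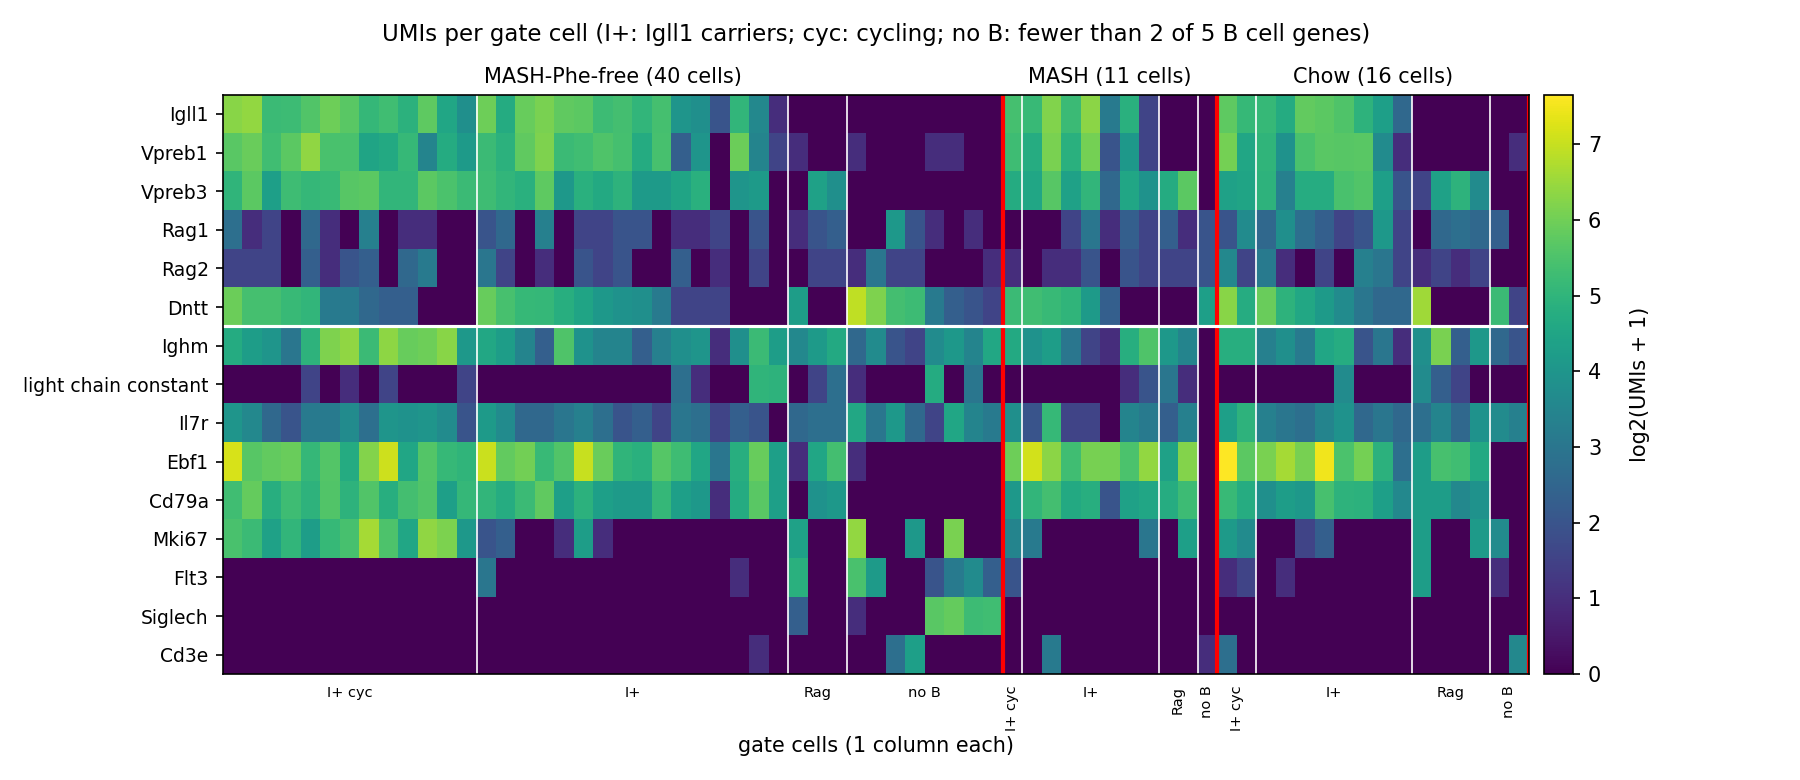
UMIs of the 6 genes (above the white line) and of other genes (below it) in each of the 67 gate cells, 1 column a cell, as log2(UMIs + 1) by colour, with MASH-Phe-free, MASH and Chow cells set apart by red lines. Cells are ordered by pattern: I+ are Igll1 cells, cyc are cells with at least 9 of 15 cycling genes, Rag are cells with Rag1 or Rag2 and no Igll1, and no B are cells with fewer than 2 of 5 B cell genes. Igll1, Vpreb1 and Vpreb3 are bright in the same columns, and the columns without B cell genes hold Dntt and no Igll1.

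Within gate cells, Igll1 and Vpreb1 went together in UMI counts, which are not scaled to gene length. In MASH-Phe-free gate cells Igll1 had from 0 to 85 UMIs with a median of 30.5, in MASH from 0 to 80 with a median of 28, and in Chow from 0 to 55 with a median of 22. Vpreb1 had from 0 to 82 UMIs with a median of 24.5 in MASH-Phe-free, from 0 to 69 with a median of 16 in MASH, and from 0 to 65 with a median of 13 in Chow. The ranges of raw UMIs per gate cell thus overlapped almost wholly between libraries, and the number of such cells differed. Gate cells were deepest in MASH-Phe-free, as given above. Relative to depth, Igll1 cells with B cell genes and without strong cycling, described below, had Igll1 at 2959 CPM (2716 to 3218) in MASH-Phe-free. It stood at 3772 (3329 to 4258) in MASH and 3357 (2965 to 3785) in Chow. In the 46 gate cells with both genes, Spearman's rho was 0.77 for UMIs and 0.80 for UMIs per cell total, across cells of 3 libraries that share depth. The median ratio of Igll1 to Vpreb1 UMIs was 1.10, and 42 of the 46 cells lay within 2-fold.

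The recombination genes were absent from part of the gate cells in each library. Rag1 had a median of 1 UMI per gate cell in MASH-Phe-free (0 to 16), 2 in MASH (0 to 7) and 4.5 in Chow (0 to 16). Rag2 had a median of 1.5 UMIs in MASH-Phe-free (0 to 8), 2 in MASH (0 to 3) and 2 in Chow (0 to 11). Dntt had a median of 8 UMIs in MASH-Phe-free (0 to 120), 17 in MASH (0 to 39) and 14.5 in Chow (0 to 94). All of these ranges of raw UMIs overlapped. Relative to depth, in the Igll1 cells without strong cycling, Rag1 was at 185 CPM (128 to 258) in MASH-Phe-free. It was at 230 (132 to 374) in MASH and 644 (479 to 846) in Chow. Rag1 or Rag2 was found in 30 of 40 MASH-Phe-free, 10 of 11 MASH and 15 of 16 Chow gate cells, and Dntt in 32, 7 and 13 of them.

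Ighm was found in more gate cells than the light chain constant genes. Light chain counts here and below are of constant genes only. The libraries were made with a 5′ kit, and variable segments were not counted. Heavy and light chain RNA are thus not compared as a whole. Ighm, the mu heavy chain gene, had at least 2 UMIs in 63 of 67 gate cells (94.0%), but such counts were common in other cell types too. Outside the gate, 14775 of 16424 B-like cells had at least 2 Ighm UMIs at a median depth of 7749.5 UMIs, 97.6% of plasmacytoid dendritic-like cells at 14033, 40.2% of T-like cells at 8842 and 5.57% of neutrophil-like cells at 4805. The share of gate cells is thus not read as expression of Ighm by each of them. A constant gene of a light chain had at least 2 UMIs in 16 (23.9%, 14.3 to 35.9). By library, a light chain was found at this level in 10 of 40 MASH-Phe-free, 2 of 11 MASH and 4 of 16 Chow gate cells. Of these cells, 2 had fewer than 2 of 5 B cell genes. Others held Ms4a1, a gene of later B cells: 17 and 11 UMIs in MASH-Phe-free cells with 31 and 30 light chain UMIs. Chow cells with 5 and 7 Ms4a1 UMIs had 12 light chain UMIs each. The light chain share is thus not read as expression by each gate cell either. At least 3 of 15 cycling genes were found in 22 of 40 MASH-Phe-free (55.0%, 38.5 to 70.7), 4 of 11 MASH (36.4%, 10.9 to 69.2) and 6 of 16 Chow gate cells (37.5%, 15.2 to 64.6), with the greatest depth in MASH-Phe-free. These intervals overlap. Il7r, the receptor of the cytokine that precursors need, had 582 UMIs in 64 of the 67.

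Clusters were built without the 6 genes. They put 26 gate cells in 1 cluster that held no other cell, with 13 MASH-Phe-free, 5 MASH and 8 Chow cells. It came from a second division of a first cluster whose other parts were monocyte-like and progenitor-like. This cluster was B precursor-like: Erg, Sox4, Arpp21 and Myb of the precursor marker list were among its 10 leading genes, and 10 of 11 markers were higher than in other B-like cells, Myl4 being lower. It made up 0.0835% of MASH-Phe-free, 0.0288% of MASH and 0.0511% of Chow cells. All 26 cells carried Igll1, Vpreb1 and Vpreb3, 25 carried Dntt, 20 Rag1 and 17 Rag2. Igll1 ranged from 15 to 69 UMIs in the 13 MASH-Phe-free cells, from 8 to 80 in the 5 MASH cells and from 25 to 55 in the 8 Chow cells. Rag1 was found in all 8 Chow cells of the cluster, with a median of 4.5 UMIs, against a median of 2 in MASH-Phe-free and 1 in MASH.

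A further 15 gate cells lay in a dividing B-like cluster led by Pclaf, Cep55 and Top2a, and they came from MASH-Phe-free in 13 cases, from MASH in 1 and from Chow in 1. That cluster, also from a second division, held 47 MASH-Phe-free, 35 MASH and 17 Chow cells in all. In total 52 of 67 gate cells lay in B-like clusters. The rest were spread over progenitor-like (5), T-like (5), plasmacytoid dendritic-like (3) and platelet-like (1) clusters and a cluster led by Gria3 and Ifi205 (1). The class of a gate cell depended on the clustering: at resolution 0.5, 12 of 67 were in B-like clusters, 30 in erythroid-like and 16 in conventional dendritic-like ones. The gate cells had 1 UMI of erythroid markers in all (Klf1 was at 0 in each library), so at that resolution the class name does not describe these cells.

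Patterns drawn up after the values were seen divide the gate cells further. Igll1 with B cell genes (at least 2 of 5) and without strong cycling was the pattern of 16 MASH-Phe-free, 7 MASH and 8 Chow cells, and 22 of these 31 were in the precursor-like cluster. Igll1 with at least 9 of 15 cycling genes was the pattern of 13 MASH-Phe-free, 1 MASH and 2 Chow cells. Among these patterns and by this cut, the libraries stood farthest apart in number in the dividing Igll1 cells. The cut was not set to equal depth, and MASH-Phe-free gate cells were deepest. Igll1 cells called without strong cycling held up to 8 cycling genes. At 3 cycling genes or more, 22 of 40 MASH-Phe-free, 4 of 11 MASH and 6 of 16 Chow gate cells were counted. The dividing MASH-Phe-free Igll1 cells had Igll1 at 1888 CPM (1738 to 2047), Dntt at 768 (674 to 872) and Ighm at 1862 CPM (1713 to 2020). In the 16 MASH-Phe-free Igll1 cells without strong cycling the levels were 2959 CPM (2716 to 3218) for Igll1, 1477 (1306 to 1663) for Dntt and 1325 (1164 to 1502) for Ighm. In MASH-Phe-free, pooled over cells, Ighm thus made up a larger part of the RNA of the dividing cells, and Igll1 and Dntt a smaller part. The other libraries had 1 and 2 dividing cells, which did not show this for Ighm: it stood at 766 CPM (491 to 1140) in the MASH cell, against 1656 in MASH cells without strong cycling, and at 1050 (789 to 1370) in the 2 Chow cells, against 1123. Dntt stood at 1149 CPM in the dividing MASH cell, against 1814, and at 2003 in the dividing Chow cells, against 1994. The dividing MASH-Phe-free cells were not alike. Those with 32 to 60 Dntt UMIs held 7 to 30 Ighm UMIs, and those with 0 to 8 held 16 to 82. The dividing MASH cell had 36 Dntt UMIs and the Chow cells 77 and 26, so division and Dntt level were not separated here. These intervals, too, treat molecules of few cells as independent.

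Rag without Igll1 was the pattern of 3 MASH-Phe-free, 2 MASH and 4 Chow cells. Of these 9, 6 had at least 2 light chain UMIs and all 9 had Ighm at this level. The pattern is not of 1 kind: 2 of its cells lay in a progenitor-like cluster, a MASH-Phe-free cell with 18 Dntt and 28 Flt3 UMIs and a Chow cell with 94 Dntt and 18 Flt3 UMIs. Flt3 is a growth factor receptor of early progenitors and dendritic cells. The same 2 cells held 62 and 14 UMIs of Mpo and 21 and 15 of Cd34, both progenitor markers. The Chow cell also held 18 Cd79a, 7 Ms4a1 and 12 light chain UMIs and is 1 of the 6. Whether it held RNA of more than 1 cell was not tested. The other 7 carried from 12 to 52 Vpreb3 UMIs and no Dntt.

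The last 11 gate cells, 8 in MASH-Phe-free, 1 in MASH and 2 in Chow, had fewer than 2 of the 5 B cell genes. Of these 11, 10 also had at least 2 Ighm UMIs, at 369 CPM (297 to 453), against 1346 CPM in Igll1 cells without strong cycling and 1668 in dividing Igll1 cells of all libraries. All 11 carried Dntt, none carried Igll1 or Vpreb3, and 9 carried Rag1 or Rag2. Of the MASH-Phe-free cells, 4 had between 37 and 57 UMIs of Siglech, a receptor of plasmacytoid dendritic cells. A MASH-Phe-free cell with 16 Rag1, 2 Rag2 and 40 Dntt UMIs also had 6 UMIs of Cd3e, a subunit of the T cell receptor complex, and another, in a progenitor-like cluster, had 37 Dntt and 19 Cd3e UMIs. A Chow cell with 2 Dntt UMIs had 11 of Cd3e, and the MASH cell with 19 Dntt UMIs had 1. A MASH-Phe-free cell with 120 Dntt UMIs had 43 of Flt3. Some barcodes held Igll1 together with Cd3e: a MASH barcode with 73 Igll1, 69 Vpreb1 and 8 Cd3e UMIs lay in a T-like cluster, and a Chow barcode with 53 Igll1 UMIs held 6 Cd3e UMIs. Whether these were doublets was not tested beyond the doublet caller, which kept them.

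Marker lists of other cell types differed between the libraries within the gate. Plasmacytoid dendritic markers summed to 1547 CPM in MASH-Phe-free gate cells, 839 in MASH and 537 in Chow, against 410, 414 and 384 CPM in other B-like cells, and Siglech was at 0 in MASH and Chow gate cells. Thymocyte markers summed to 189 CPM in MASH-Phe-free, 435 in MASH and 385 in Chow gate cells, with Cd8a at 0 in MASH-Phe-free and MASH and Ptcra at 0 in MASH and Chow. Progenitor markers summed to 288, 74.9 and 234 CPM in the same order, with Gata2 at 0 in each library. These sums were 214, 10 and 57 UMIs and rested on few cells. At least 3 such UMIs were in 7 of 40 MASH-Phe-free, 3 of 11 MASH and 5 of 16 Chow gate cells. A single MASH-Phe-free cell gave 62 Mpo and 21 Cd34 UMIs. When gate cells were limited to Igll1 cells with B cell genes, MASH-Phe-free was at 4.04 times the share of MASH, and when limited to B-like clusters at 4.32 times.

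The gate cells were then compared with the other B-like cells on genes that the rule did not use, pooled over libraries. Since cells chosen for precursor genes carry other genes of that stage with them, the counts are given without a test. Of 16052 genes, 8.30% were higher by more than 2-fold in gate cells and 4.68% were lower, with a median log2 ratio of 0.03. Of 20 early B progenitor genes, 16 were higher and 1 lower, with a median log2 ratio of 2.74. Myb had a log2 ratio of 5.33, Il7r 5.3, Lef1 4.97, Sox4 4.97 and Arpp21 4.59, each higher in all 3 libraries. Myb, Lef1 and Sox4 encode transcription factors of progenitors. Cd2, an adhesion molecule gained late in the precursor stage, was the gene that was lower, at -2.25.

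Mature B cell genes were the mirror of this list. Of 18, none were higher and 16 were lower by more than 2-fold, with a median log2 ratio of -3.27. Fcmr (-4.70) and Cr2 (-4.42) encode receptors for IgM and complement, Fcer2a (-4.20) a receptor for IgE, and H2-Eb1 (-4.27) and Cd74 (-4.01) serve antigen presentation. Ccr7, a homing receptor, was within 2-fold (-0.78). By library, 17 of 18 were lower in MASH-Phe-free, 17 in MASH and 16 in Chow, where 6.15%, 9.17% and 6.83% of all genes were. All 4 light chain constant genes were lower, with Iglc2 at -4.64 and Igkc at -3.35.

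Genes that B cells use from early on were closer. Of 16 B cell identity genes, 1 was higher and 8 were lower, with a median of -0.98. Tcf3, which encodes the E2A proteins, was the higher one (1.46), and Ebf1, which specifies the lineage, was at 0.66. Ms4a1 (-4.81), Cd22 (-3.95) and Ikzf3 (-2.82) were farthest below, and they are genes of later B cells. Pax5, which holds cells in the lineage, was at -0.82. By library, 1 was higher and 8 were lower in MASH-Phe-free, 2 and 4 in MASH, and 1 and 11 in Chow, and Ebf1 was at 0.37 in MASH-Phe-free, 1.53 in MASH and 0.93 in Chow.

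Of 14 genes of the end joining that follows RAG cuts, 4 were higher and 1 was lower, with a median of -0.04. Hmgb2 (3.28) and Hmgb1 (2.64) encode DNA-bending proteins that help RAG to cut, Xrcc6 (2.44) a Ku subunit that binds broken ends, and Lig4 (1.33) the ligase of this pathway. Xrcc5, the other Ku subunit, was at -1.11, and the remaining 9, such as Dclre1c (-0.09), Prkdc (-0.73) and Atm (-0.42), were within 2-fold. Hmgb2 is also high in dividing cells, and all 15 cycling genes were higher in gate cells, with a median of 2.99. By library, 15 of 15 cycling genes were higher in MASH-Phe-free, 8 in MASH and 13 in Chow, where 10.1%, 11.6% and 9.01% of all genes were. Rrm2 (3.80), Top2a (3.68) and Mki67 (3.61) were farthest above in the pooled cells.

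The genes most like the 6 were ranked by their level in gate cells over all other cells. Cplx2, which encodes a protein of vesicle fusion, led with 391 CPM in gate cells and 2.89 CPM in other cells, a 31.1-fold ratio with 10 CPM added to both. Sox4 (26.4-fold), Arpp21 (22.5-fold), 2610307P16Rik (21.6-fold), Gfra1 (17.4-fold), Myb (15.6-fold) and Cecr2 (15.3-fold) followed. The Vpreb1 copy Vpreb1b had rank 8, with 128 CPM in gate cells and 0.00231 CPM in the others. Erg, Akap12, 1700027J07Rik, Niban3, Gm35107, Gm30948 and Epb41l4b completed the 15, down to 11.7-fold. Gfra1, a receptor subunit for a neurotrophic factor, was in 49 of 67 gate cells, and each of the 15 was more than 2-fold higher in each library, as the ranking required.

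Outside the gate, Vpreb3 was a gene of B-like cells. It was found in 41.3% of 4436 MASH-Phe-free, 44.7% of 6049 MASH and 50.4% of 5939 Chow B-like cells outside the gate, and in 25.6% of plasma-like cells. Neutrophil-like cells, which should lack it, had it in 0.962% at a median depth of 4805 UMIs, against 7749.5 in B-like cells. The B-like level was 160 CPM (156 to 164) in MASH-Phe-free, 185 (181 to 189) in MASH and 185 (182 to 189) in Chow. MASH-Phe-free was thus lower within B-like cells by less than over all cells, where it also had fewer B-like cells.

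Among B-like cells divided again, without the 6 genes, Vpreb3 was graded. A cluster of 20 cells led by Il7r and Sox4 was at 3011 CPM. It held 6 MASH-Phe-free, 3 MASH and 11 Chow cells, so Chow had the most, unlike in the gate. Outside the gate lay 1, 1 and 8 of them, at 3711 CPM (2352 to 5568), 3502 (2194 to 5301) and 3031 (2558 to 3566). The cells of this cluster that the gate rule left out were thus mostly from Chow. A cluster of 1260 cells led by Agbl1 and Akap12 came next at 967 CPM, with the gene in 95.4% of its cells, and it was at 993 CPM in MASH-Phe-free, 968 in MASH and 947 in Chow. The 3 libraries differed by little in that cluster. Clusters led by H1f5 and H2ac4 (348 CPM) and by Rflnb and Fcer2a (238 CPM) were lower, and those led by Ube2e2 and Asb2 (52.3 CPM) and by S100a6 and Ahnak (40.3 CPM) lower again. Ackr3, the next leading gene of the Ube2e2 and Asb2 cluster, is known from marginal zone B cells.

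In the largest clusters the MASH-Phe-free library was lower. In the Rflnb and Fcer2a cluster Vpreb3 stood at 199 CPM (187 to 211) in MASH-Phe-free, 235 (225 to 246) in MASH and 261 (251 to 272) in Chow. In the Ube2e2 and Asb2 cluster it stood at 39.8 CPM (36.2 to 43.6) in MASH-Phe-free, 53.8 (49.7 to 58.1) in MASH and 60.1 (56.4 to 64.0) in Chow. The cluster led by H1f5, a histone gene of dividing cells, went the other way, at 483 CPM in MASH-Phe-free, 232 in MASH and 322 in Chow, but it held 25 MASH-Phe-free, 6 MASH and 9 Chow gate cells. Without them it was at 257 CPM (238 to 278) in MASH-Phe-free, 187 (171 to 203) in MASH and 207 (185 to 230) in Chow, so MASH-Phe-free was still the highest, by less. These B-like clusters include 1 of 216 cells led by the pancreatic genes Ctrb1, Try5 and Prss2, of which 202 were Chow cells.

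**Figure D4:**
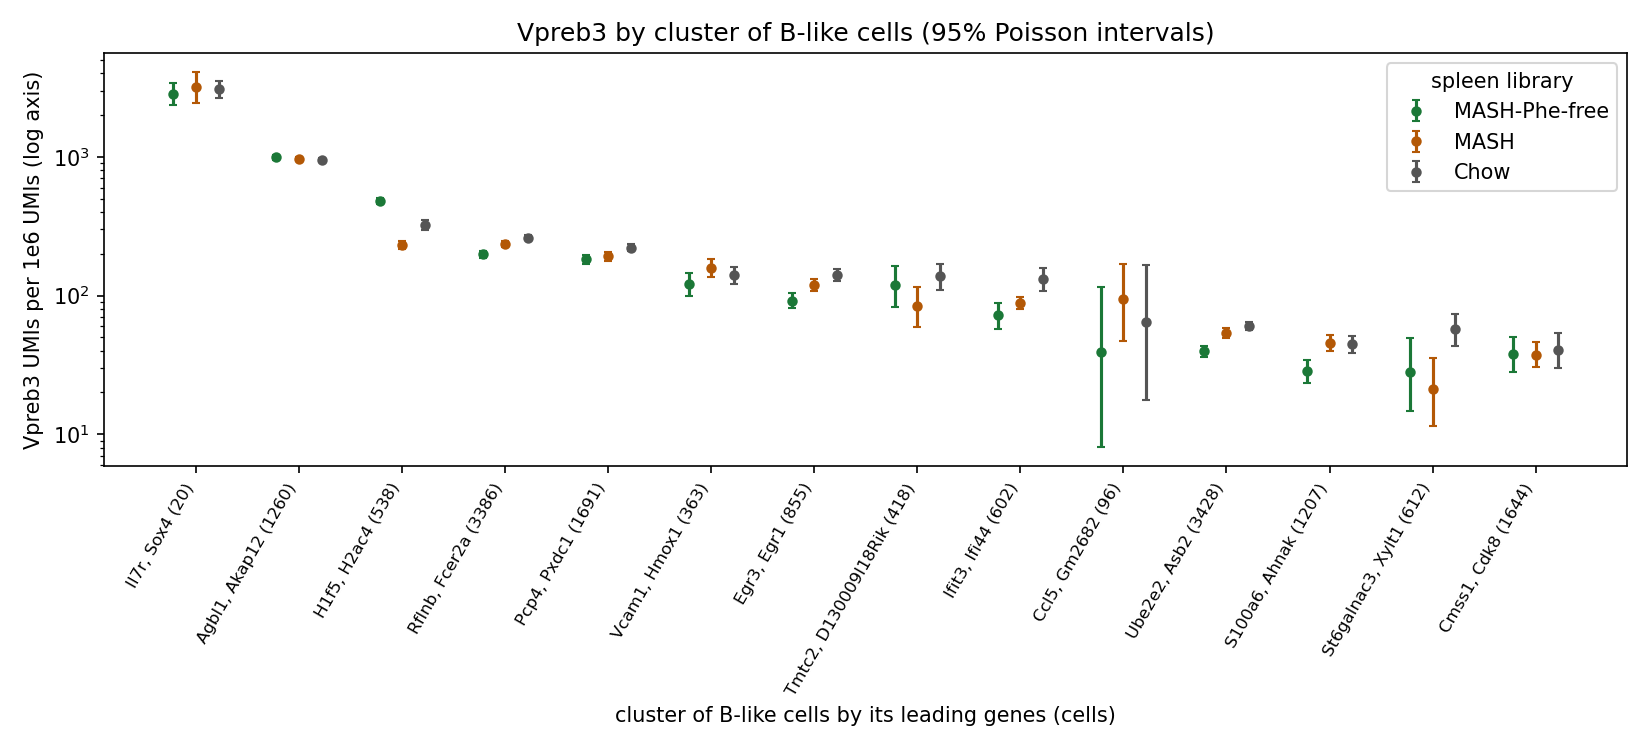
Vpreb3 level in clusters of B-like cells (UMIs per 1000000 UMIs, log axis) for the MASH-Phe-free, MASH and Chow libraries, with 95% Poisson intervals; clusters are named by 2 leading genes with their number of cells, and 2 of the 16 clusters, among them the Ctrb1 cluster without a Vpreb3 UMI in MASH, are not drawn. Levels run from 3011 CPM in the Il7r and Sox4 cluster to 38.4 CPM in the Cmss1 and Cdk8 cluster, and the libraries lie close together in the Agbl1 and Akap12 cluster.

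Dntt outside the gate was a gene of other lineages. It was found in 45 of 84 plasmacytoid dendritic-like cells (53.6%, 42.4 to 64.5): 22 of 37 in MASH-Phe-free, 8 of 22 in MASH and 15 of 25 in Chow. No plasmacytoid dendritic-like cell held more than 15 Dntt UMIs outside the gate. Neutrophil-like cells had Dntt in 3 of 3949 (0.0760%), so the share in dendritic-like cells was far above this background, at a median depth of 14033 UMIs against 4805.

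Dntt was also found in 172 of the T-like cells outside the gate (2.01%), and in 0.664% after thinning to 2000 UMIs, where neutrophil-like cells had 0. It was in 79 of 2023 cells of the cluster led by Cd8b1 and Cd8a (3.91%, 3.10 to 4.84): 20 of 525 in MASH-Phe-free, 28 of 676 in MASH and 31 of 822 in Chow. It was in 84 of 2441 cells of the cluster led by Igfbp4 and Lef1 (3.44%, 2.75 to 4.24): 12 of 593 in MASH-Phe-free, 34 of 785 in MASH and 38 of 1063 in Chow. Lef1 is known from T cells that have not met antigen. In the cluster led by Ikzf2 and Foxp3, genes of regulatory T cells, 5 of 2438 cells carried Dntt (0.205%), and in that led by Ccl5 and Gzmk, genes of effector cells, 0 of 325 did, which allows a share of up to 0.923%. These Dntt cells held at most 4 UMIs each in the Cd8b1 and in the Igfbp4 cluster. The 3 Rag1 cells and the 4 Rag2 cells of T-like clusters were all gate cells, by a rule that uses these genes.

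The progenitor-like cluster led by Angpt1 and Adgrl4 held Dntt in 10 of 71 cells outside the gate, with up to 138 UMIs in a cell. By library these were 4 of 44 cells in MASH-Phe-free, 1 of 11 in MASH and 5 of 16 in Chow. Outside the gate, Chow had 342 Dntt UMIs in 110 cells of all classes, and 1 Chow cell of this cluster held 138 of them. With gate cells left out, MASH-Phe-free was at 0.527 of Chow and at 1.68 times MASH. What the ratio to Chow rests on was not tested. In B-like cells outside the gate Dntt was found in 10 cells (0.0609%).

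**Figure D5:**
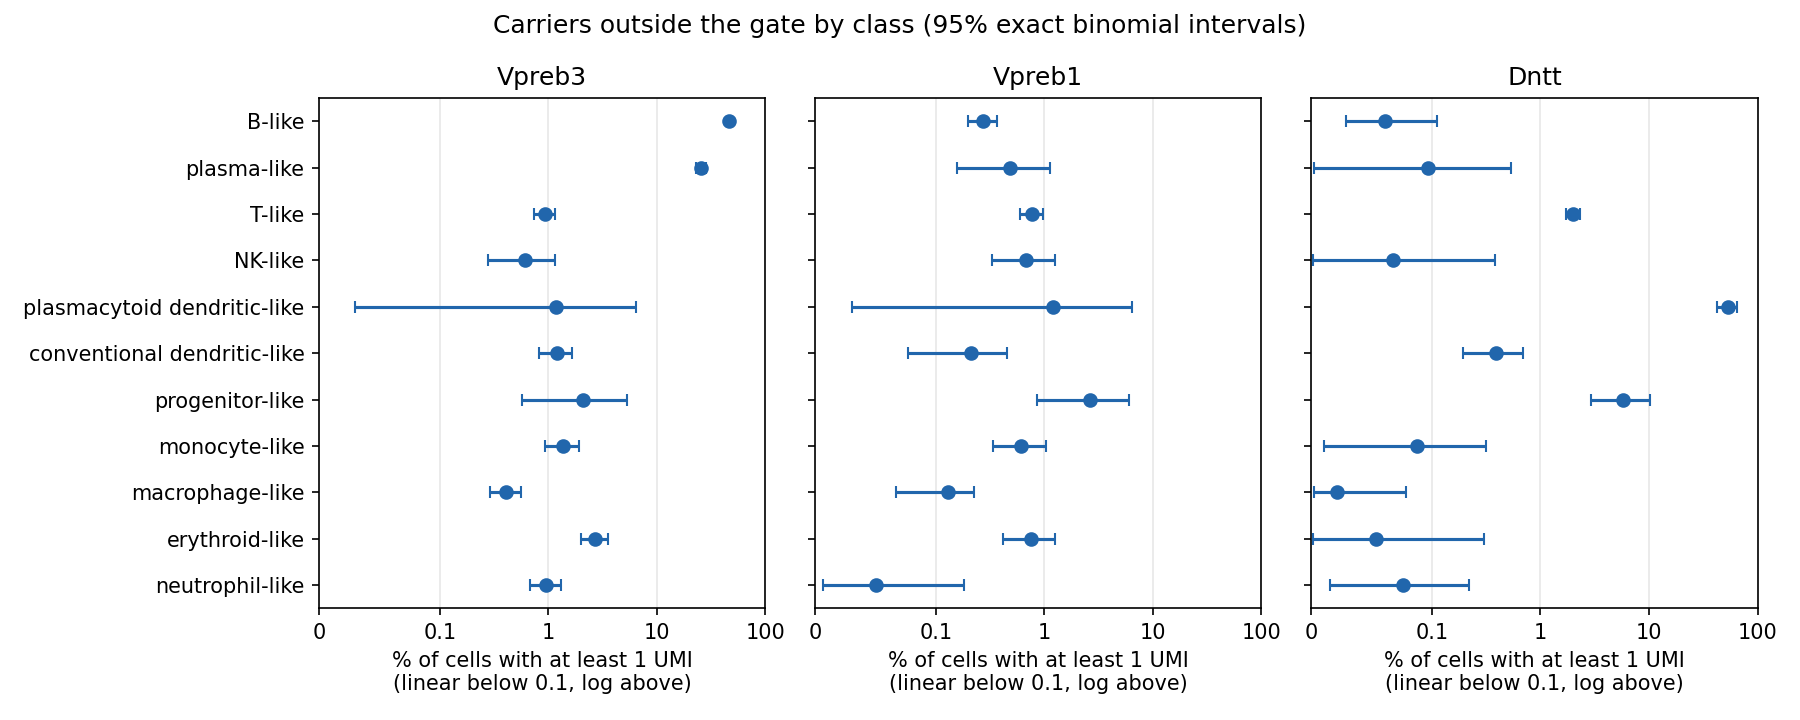
Share of cells outside the gate with at least 1 UMI of Vpreb3, Vpreb1 and Dntt in each cell class (%, 3 libraries pooled, axis linear below 0.1 and logarithmic above), with 95% exact binomial intervals. Vpreb3 stands out in B-like (45.9%) and plasma-like cells (25.6%), Dntt in plasmacytoid dendritic-like (53.6%), progenitor-like (5.79%) and T-like cells (2.01%), and Vpreb1 shows a like low share in many classes.

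Vpreb1 and Igll1 differed outside the gate. Vpreb1 had 198 UMIs in 180 cells there and Igll1 9 UMIs in 8 cells. The Vpreb1 cells were found in 0.773% of T-like, 0.274% of B-like, 0.679% of NK-like, 0.755% of erythroid-like, 0.614% of monocyte-like and 0.0506% of neutrophil-like cells. Thinned to 2000 UMIs, the shares were 0.109% in T-like, 0.0591% in B-like and 0.0267% in neutrophil-like cells, with intervals that overlap. These thinned shares rested on 9 T-like, 9 B-like and 1 neutrophil-like cells. They were too few to decide whether Vpreb1 in single molecules is background. Without thinning, the median depth was 8842 UMIs in T-like and 4805 in neutrophil-like cells. Such cells were 73 in MASH-Phe-free, 58 in MASH and 49 in Chow, and without gate cells the MASH-Phe-free level of Vpreb1 was 1.11 times that of MASH and 1.20 times that of Chow. The larger ratios of Vpreb1 over all cells were those with the gate cells.

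Rag1 and Rag2 outside the gate were found mostly in B-like cells: 9 of 12 Rag1 cells, with 31 UMIs, and 11 of 17 Rag2 cells, with 20 UMIs. Of the 9 Rag1 cells, 6 were Chow cells with 22 UMIs, 1 was a MASH cell with 7 and 2 were MASH-Phe-free cells with 2. Rag1 was at 0 in neutrophil-like, monocyte-like, erythroid-like, NK-like and plasma-like cells.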

How the data were processed

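RNA of spleen cells was measured in 3 single-cell libraries, 1 per group. Per the labels' protocols, libraries were made with a Chromium 5′ v2 kit. The deposited values are raw whole UMI counts per gene and barcode, per the file headers and values, with at least 500 UMIs in every barcode. Other deposited columns hold gene identifiers, symbols and barcodes, per the file headers. Per the submitters' processing notes, Cell Ranger 9.0.1, Seurat 5.3.0 and the GRCm39/mm39 genome were used, with no roles given. The annotation release is not given in the sources used here.

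Barcodes were left out below 300 genes, below 500 UMIs or above 10% mitochondrial UMIs, and Scrublet removed 304 MASH-Phe-free, 318 MASH and 315 Chow barcodes as doublets. Cells of the 3 libraries were clustered together without the 6 genes (2000 variable genes, 30 components, 15 neighbours, Leiden resolution 1.0) with scanpy 1.11.5 and leidenalg 0.10.2 under Python 3.11.15. Clusters of at least 60 cells without a name, named progenitor, or with a close second class were then divided again at resolution 0.5. Each cluster took the name of the best-scoring marker list, the score being the mean log2 fold over 5 leading markers with a minimum of 1.5. B-like clusters were divided again and called by leading genes. Shares have exact Clopper-Pearson 95% intervals. Levels are summed counts per 1000000 (CPM) with exact Poisson 95% intervals, and log2 ratios have an offset of 10 CPM. A count of 0 was read as up to 3 counts. No column of per-sample values was left unused. With 1 library per group no test was run and no p-value is given. edgeR 4.0.16 served only for TMM factors as an alternative, and scripts were tested on simulated data.

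The genes named as most like the 6 were the 15 with the highest ratio of gate over other cells (at least 50 UMIs in gate cells, in at least 20% of them, above 2-fold in each library, antigen receptor, haemoglobin, mitochondrial, ribosomal protein and sex-linked genes not eligible). From each list up to 5 members farthest from the median of all genes were eligible, and others named beside them were chosen after their values were seen. The 6 genes, the gate and the lists were chosen with earlier results of these data known. Promoters come from RefSeq, and overlaps from GENCODE, on GRCm38. Some genes are not reported here.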

Additional observations from a re-analysis of the deposited data

Results flagged for a closer look

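Barcodes left out by the filters and the doublet caller, 3930 in all, held UMIs of 3 of the 6 genes above the limit that a count of 0 allows. Vpreb3 had 1004 UMIs in 347 of these barcodes. Dntt had 15 UMIs in 12 barcodes and Vpreb1 10 UMIs in 8. Rag1 had 2 UMIs there, and Igll1 and Rag2 had none. The number of gate cells was the same without any filter on barcodes, at 40 in MASH-Phe-free, 11 in MASH and 16 in Chow.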

How the results depend on the processing

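No paired analysis was possible because each group had 1 library. Under 12 alternatives the gate share kept its direction in each comparison and lay within the interval given: MASH-Phe-free over MASH ran from 2.30 (gate of Igll1 and Vpreb1 alone) to 5.04, MASH-Phe-free over Chow from 1.95 to 3.07, and MASH over Chow from 0.556 to 0.881. Gate cells in B-like clusters only, and Igll1 cells with B cell genes only, were alternatives chosen after seeing the data. Several others kept the gate rule and changed only the filter or the total, so they are not independent of the main result. No alternative was set up to add the cells of the Il7r and Sox4 cluster that the gate rule left out, mostly from Chow. The share of cells with any of the 5 genes other than Vpreb3 was less stable. At 2 or more UMIs, MASH over Chow stood at 0.581 and MASH-Phe-free over MASH at 2.08, and as a share of B-lineage cells it was 2.47 for MASH-Phe-free over MASH and 1.53 for MASH-Phe-free over Chow. For the summed level of the 5 genes, B-lineage cells alone gave 0.493 for MASH over Chow, 6.39 for MASH-Phe-free over MASH and 3.15 for MASH-Phe-free over Chow. Without gate cells these were 0.433, 1.41 and, reversed, 0.613, and TMM factors gave 1.91 for MASH-Phe-free over Chow. Without gate cells the ratio also changed side for Igll1 (1.40) and Vpreb1 (1.08) in MASH over Chow. It did so for Rag1 (0.415) in MASH-Phe-free over MASH and for Dntt (0.527) in MASH-Phe-free over Chow. Igll1 rested on 3 MASH and 2 Chow UMIs, and Rag1 on 4 MASH-Phe-free and 9 MASH UMIs. Over whole-library totals, intervals included equal levels for Igll1 (0.160 to 16.8), Vpreb1 (0.746 to 1.58) and Rag1 (0.0930 to 1.48). The Dntt interval (0.440 to 0.626) excluded them, and the cause was not tested. At resolution 0.5, 17.9% of gate cells were in B-like clusters. Gate cells thinned to 4000 UMIs had Ighm in 78.1% and Rag1 or Rag2 in 64.1%. A gate of Igll1 and Vpreb1 alone held 66 cells, 47 of them gate cells, with Ighm in 83.3%, Dntt in 59.1%, Rag1 or Rag2 in 56.1% and Igll1 or Vpreb1 by construction in 100%. It shared 14 of the 15 named genes. List counts stayed within 1.5 times. Depth limits Rag1 and Rag2 most, at few UMIs per cell.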
